A study of Mus musculus with 258 samples.

Results

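The Ets1 and Fli1 hub is a group of chromatin loops on mouse chromosome 9 that meet between the genes Fli1 and Ets1. Its members were chosen by position, as all loops of the authors' lists with an anchor that starts between 31500001 and 33500000 (mm9). There are 14 such loops of 6181 in all, 9 of 4315 in activated B cells and 5 of 1866 in resting B cells. The hub window, from 32370001 to 32430000, was singled out because many loops meet there. The number of loops at it is therefore a description, and no test was made of it.

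Ets1 and Fli1 are neighbouring, related transcription factors of the ETS family, which bind DNA through a shared winged helix-turn-helix domain. In mouse B cells Ets1 is known as a factor that restrains differentiation into antibody-secreting plasma cells, and mice without it make autoantibodies. Fli1 acts in blood stem cells, in the cells that form platelets and in B cell maturation. The genes are transcribed away from each other, so that their 5′ ends face the interval that holds the hub. In mammalian cells a loop typically forms where cohesin extrudes chromatin until it is held at bound CTCF, and loops can also join enhancers and promoters.

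Contacts were measured by in situ Hi-C, which ligates DNA ends that lie together in fixed nuclei, in wild-type C57BL6/J mice of 6 to 8 weeks. Splenic B cells, isolated by negative selection, were activated for 72 h with LPS (lipopolysaccharide, 50 µg/mL), IL-4 (2.5 ng/mL) and an anti-CD180 antibody (0.5 µg/mL), or were resting (0 h). The labels give 26 libraries to the activated group and 8 to the resting group, and the authors deposited 1 pooled list for each state. There are thus no replicate lists, no p-value between states was computed, and intervals below cover counting error only. Identity of the cells was not checked here, since no expression values were used. At the 1212 loops paired between the lists, the local background was 1.55 times as high in activated as in resting cells (median), which is used below as the ratio of the depths of the maps. A contact count cannot tell more cells with a loop from more contact in each cell.

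The hub sat in the gap between the genes, nearer to Ets1. By the gene intervals used, about 32230001 to 32350000 for Fli1 and about 32440001 to 32570000 for Ets1, the window began 20 kb beyond Fli1 and ended 10 kb before Ets1. In activated cells 6 of the 9 loops had an anchor in it, and in resting cells 5 of 5 did. The ratio of these counts, activated over resting, was 1.2 (exact conditional 95% interval 0.305 to 4.97) at the hub and 1.80 (0.542 to 6.84) over the region. Over the genome the ratio was 2.31 (2.19 to 2.44). Nothing is read from the hub and region intervals against it, because the window was chosen for its many loops and these share feet. No loop anchor lay within the Fli1 interval in either list, so Fli1 was bracketed by loops and did not itself carry an anchor. Ets1 carried an anchor of 2 activated and of 2 resting loops.

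**Figure D1:**
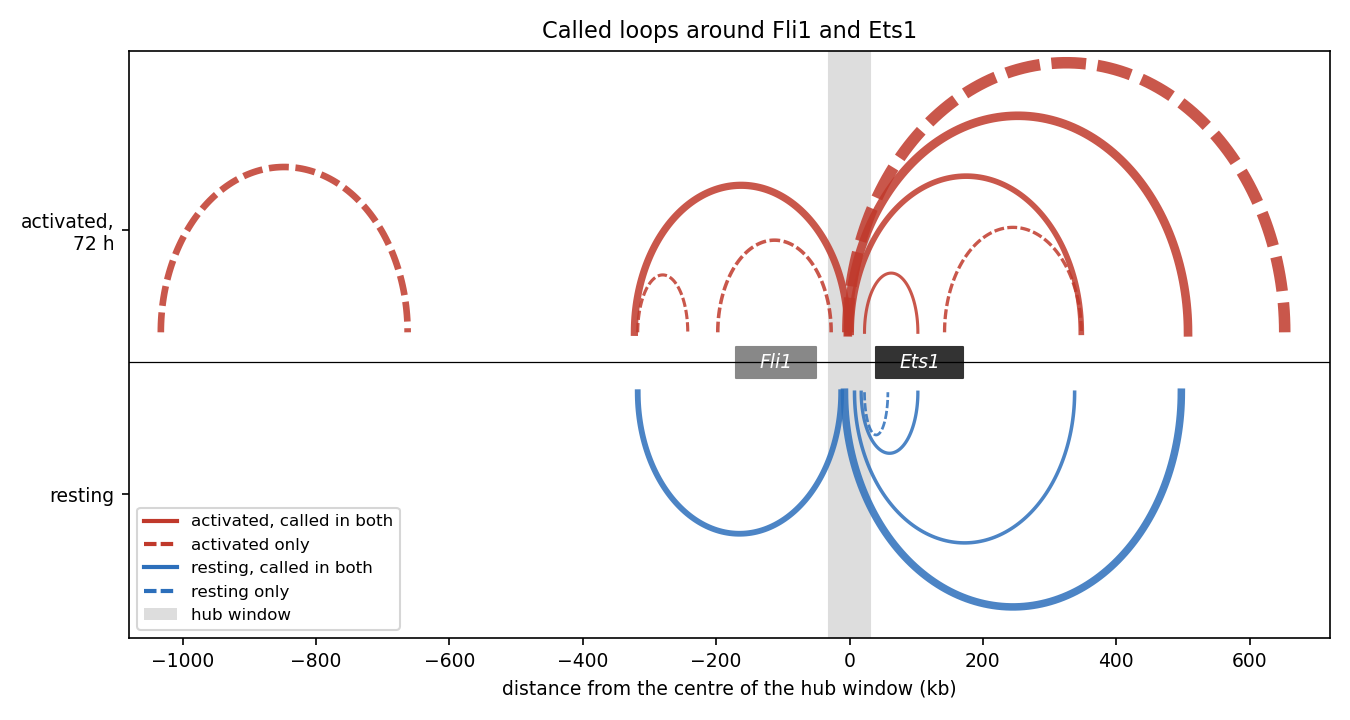
Called loops around Fli1 and Ets1, by distance from the centre of the hub window in kb. Activated loops are drawn above and resting loops below the line, line width is proportional to observed over expected contacts, arc height follows loop length, and dashed arcs were called in 1 state only. The 6 activated and 5 resting hub loops fan out from the grey window to both sides, and no arc crosses it.

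Loops left the hub in both directions, mostly towards Ets1. On the Fli1 side 2 activated loops and 1 resting loop ended at the hub, and on the Ets1 side 4 activated and 4 resting loops did. On the Fli1 side the furthest partner was 322.5 kb from the centre of the window in activated cells and 317.5 kb in resting cells. On the Ets1 side it was 652.5 kb away in activated cells and 497.5 kb in resting cells. The whole Fli1 interval lay inside 2 activated loops and 1 resting loop, and the whole Ets1 interval inside 3 activated and 2 resting loops. No called loop crossed the window from one side to the other in either state. With chromosome Y included, such anchors were common among merged anchors with at least 4 loops. No loop crossed 66.2% of 80 in activated cells and 52.4% of 21 in resting cells. The share without chromosome Y was not computed.

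The Fli1 side was held by a long loop that was called in both states. This loop ran from 32075001 to 32400000 in activated cells and from 32080001 to 32390000 in resting cells, so that it enclosed Fli1. It had 23 observed contacts in activated cells and 31 in resting cells. Its strength, the observed count over that expected from the surrounding donut of pixels, was 4.97 (95% Poisson interval 3.15 to 7.46) in activated cells and 3.98 (2.70 to 5.65) in resting cells, so the intervals overlap. Per the authors' list the activated call rested on 1 enriched pixel, the fewest among the 14 loops. In gene order, though not by coordinates of this build, the potassium channel genes Kcnj1 and Kcnj5 lie beyond Fli1 on this side.

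Within that loop activated cells had a second one around Fli1, called in them alone. It joined a point 25 kb outside Fli1 to the edge of the hub window, from 32200001 to 32375000. Its 59 contacts stood at 2.43 times expectation (1.85 to 3.14). Its hub end lay 27.5 kb from the centre of the window, further out than that of any other activated loop there. A short activated-only loop started at the pixel next to the outer foot of the long loop and ended short of the Fli1 interval, from 32080001 to 32160000. That loop had 50 contacts and a strength of 2.13. In the authors' deposited table its highest q-value over the 4 backgrounds was 0.0959, the highest among the 14 loops.

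On the Ets1 side a short loop joined the hub to a point inside the Ets1 interval in both states. Whether that point lies at a promoter was not checked. The loop ran from 32420001 to 32505000 in activated cells and from 32415001 to 32505000 in resting cells, with its right foot at the same pixel. It had 75 contacts in activated cells and 90 in resting cells, and its strength was 2.10 (1.65 to 2.64) in activated cells and 2.26 (1.82 to 2.78) in resting cells. Resting cells alone had a still shorter loop into Ets1, of 35 kb, from 32420001 to 32460000. That loop had 116 contacts, the most of the 14 loops, over a high expected count of 61.8, and its strength of 1.88 was the lowest. It had the same hub foot as the short activated loop, and their feet in Ets1 lay 45 kb apart. With anchors widened by 25 kb it too was counted as shared.

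A pair of longer loops passed over the whole of Ets1 in both states. The shorter ran from 32400001 to 32750000 in activated cells and from 32405001 to 32740000 in resting cells. It had 68 contacts in activated cells and 39 in resting cells, and strengths of 3.88 (3.01 to 4.92) in activated and 2.43 (1.73 to 3.32) in resting cells. The longer ran from 32395001 to 32910000 in activated cells and from 32390001 to 32900000 in resting cells. It had 56 contacts in activated cells and 40 in resting cells, with strengths of 5.93 (4.48 to 7.70) in activated and 5.18 (3.70 to 7.05) in resting cells. Per the authors' lists it merged 12 enriched pixels in activated cells and 2 in resting cells. It was the strongest of the 5 resting loops.

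Activated cells alone had another loop over Ets1, the longest of the group. It joined the hub to a point 652.5 kb from its centre, from 32395001 to 33055000, and left the hub from the same pixel as the 510 kb and 320 kb loops. At 7.92 times expected it was the strongest of the 14 loops, but it rested on 15 contacts over an expected count of 1.89, and its interval was wide (4.43 to 13.1). The fewest contacts of any loop in the activated list were 14. A further activated-only loop joined a point inside the Ets1 interval to the right foot of the 345 kb loop, from 32540001 to 32750000. It had 61 contacts and a strength of 2.26. The last activated-only loop stood apart, from 31365001 to 31740000, and shared no anchor with the others. In the authors' deposited table the highest q-value of the 655 kb loop was 0.0736 and that of the 205 kb loop 0.0593. There, all 4 q-values were at most 0.01 in 5 of 9 activated loops, against 74.2% genome-wide, and in 2 of 5 resting loops, against 65.5%.

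The loops called in both states were thus all hub loops. They numbered 4, which is 44.4% of the activated loops here (Wilson interval 18.9 to 73.3) and 80.0% of the resting ones (37.6 to 96.4). Over the genome 28.3% of activated and 65.2% of resting loops were shared. Called in activated cells alone were 5 of 9 loops, against 71.7% genome-wide, and called in resting cells alone was 1 of 5, against 34.8%. Of the 5 activated-only loops 4 used an anchor that resting cells also used, where 33.8% did so genome-wide, and the resting-only loop used an activated anchor, as 66.3% did genome-wide. Nothing is read from these counts, shares and intervals, because the region was chosen around an anchor in use in both lists and its loops share feet. In none of the 4 shared loops were both feet at the same pixels in the 2 states, and the feet moved by at most 10 kb. The activated partner was the longer for 3 of 4, against 29.7% of pairs genome-wide, with differences of 15, 5 and 15 kb.

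Outside chromosome Y no merged anchor had more loops in activated cells. When anchors within 10 kb of each other in either list were merged, the hub formed a single anchor of 55 kb with 6 activated and 5 resting loops. Outside chromosome Y it was the only merged anchor with at least 6 activated loops, and the only one that reached both numbers. The feet of both lists were pooled before merging, and the activated rank depends on this. By themselves the activated feet, at pixels that start at 32370001, 32395001, 32400001 and 32420001, lie too far apart to form a single anchor. In resting cells 3 merged anchors had at least 5 loops, and the other two lay on chromosome 13, from 22110001 to 22135000 with 2 activated and 7 resting loops, and from 23515001 to 23545000 with 2 activated and 5 resting loops. The width of the hub bears on this rank: the median merged anchor was 5 kb wide, and 2 of 7310 were at least as wide as the hub. Counted instead in 60 kb windows moved in steps of 5 kb, without chromosome Y, 2 separate places reached 6 loops in activated cells and none exceeded them. In resting cells 6 places reached 5 loops and 1 had more.

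**Figure D2:**
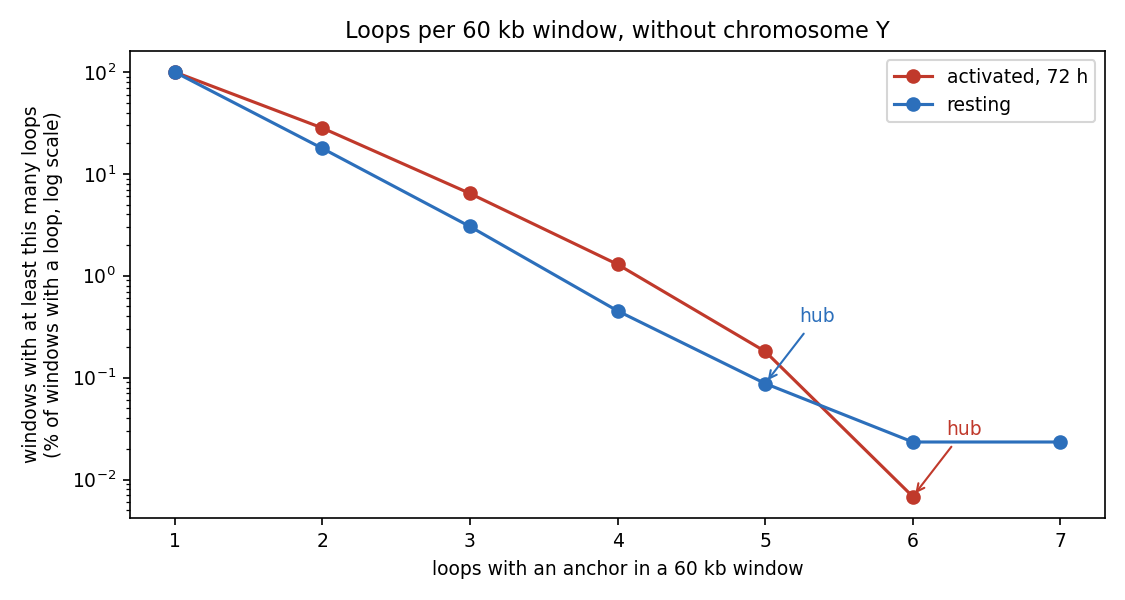
Share of 60 kb windows with at least a given number of loops, as a percentage of windows that hold any loop (log scale), in activated and resting cells without chromosome Y. Arrows mark the hub, with 6 activated and 5 resting loops, at the far end of the activated curve.

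Inside the window the feet of the loops were spread differently in the 2 states. In activated cells 3 of the 6 loops left from a single pixel of 5 kb, from 32395001 to 32400000, 2.5 kb from the centre. The 6 activated feet used 4 pixels between 32370001 and 32425000. In resting cells the 5 feet fell on 5 different pixels between 32385001 and 32425000, a narrower span. Pixels with at least 3 loops made up 0.812% of those in use in activated cells and 0.498% in resting cells, without chromosome Y. In both states the full set of hub loops thus meets only at a coarser scale than the pixel. How far the depth of the maps sets the placing of the feet was not tested.

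In resting cells the hub stood far from other called loops on the Fli1 side. From 21965001 to 35090000, a stretch of 13.1 Mb, the resting list held these 5 loops and no other. In the same stretch the activated list held 18 loops, 9 of them in the region and 9 outside it. On the Fli1 side the nearest activated loop lay 0.205 Mb from the outermost activated loop of the region, and the nearest resting loop 10.1 Mb from the outermost resting one. Of 1293 stretches without a loop between resting autosomal loops, 34 were at least that long, and their median was 0.555 Mb. On the Ets1 side the stretch without loops measured 2.035 Mb in activated cells and 2.19 Mb in resting cells. Stretches at least that long numbered 233 of 2461 in activated and 268 of 1293 in resting cells. The protein-coding genes next to Ets1 on that side, by order alone, are Kirrel3 and St3gal4.

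The loops were long for both lists. Their median length was 320 kb in activated cells (75 to 655 kb) and 305 kb in resting cells (35 to 505 kb), where the genome-wide medians were 140 kb in activated and 90 kb in resting cells. Longer than 300 kb were 5 of 9 activated loops, against 19.5% genome-wide, and 3 of 5 resting loops, against 9.97%. The loops share feet, and are not independent of each other.

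In both states the hub loop of the greatest reach was the strongest. The median strength was 3.88 in activated cells (2.10 to 7.92) and 2.43 in resting cells (1.88 to 5.18), and the genome-wide medians were 2.84 in activated and 2.63 in resting cells. Among loops of similar length (within 20%, without chromosome Y), the 655 kb activated loop was stronger than 98.8% of 162. The 510 kb loop was stronger than 94.4% of 266 activated loops, and its resting partner of 505 kb than 96.2% of 52 resting loops. The 320 kb loop around Fli1 was stronger than 93.4% of 501 activated loops, and its 305 kb partner than 83.6% of 134 resting loops. The 655, 320 and 305 kb loops had fewer contacts than the median of such loops (15 against 35.5, 23 against 50, 31 against 45). Their expected counts were also lower (1.89 against 9.26, 4.63 against 15.4, 7.79 against 13.5). The 510 kb loop had 56 contacts against 39, and its resting partner 40 against 40. The short loop into Ets1 stood low, above 13.1% of 662 activated and 22.2% of 311 resting loops. Of the other activated-only loops, the 205 kb loop from Ets1 was above 5.84% of 771, the 170 kb loop around Fli1 above 15.1% of 790, the 75 kb loop above 20.1% of 633 and the separate 370 kb loop above 86.1% of 446. That 370 kb loop too had fewer contacts than the median of such loops, 31 against 46, over 6.80 against 13.6 expected. The resting-only loop of 35 kb was above 16.5% of 376 resting loops. The 345 kb loop over Ets1 differed most between the states, being above 70.5% of 471 loops in activated cells and above 4.35% of 115 in resting cells. These ranks rest on the donut background. Against the lower left background the strength of that loop was 3.54 in activated and 3.56 in resting cells.

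**Figure D3:**
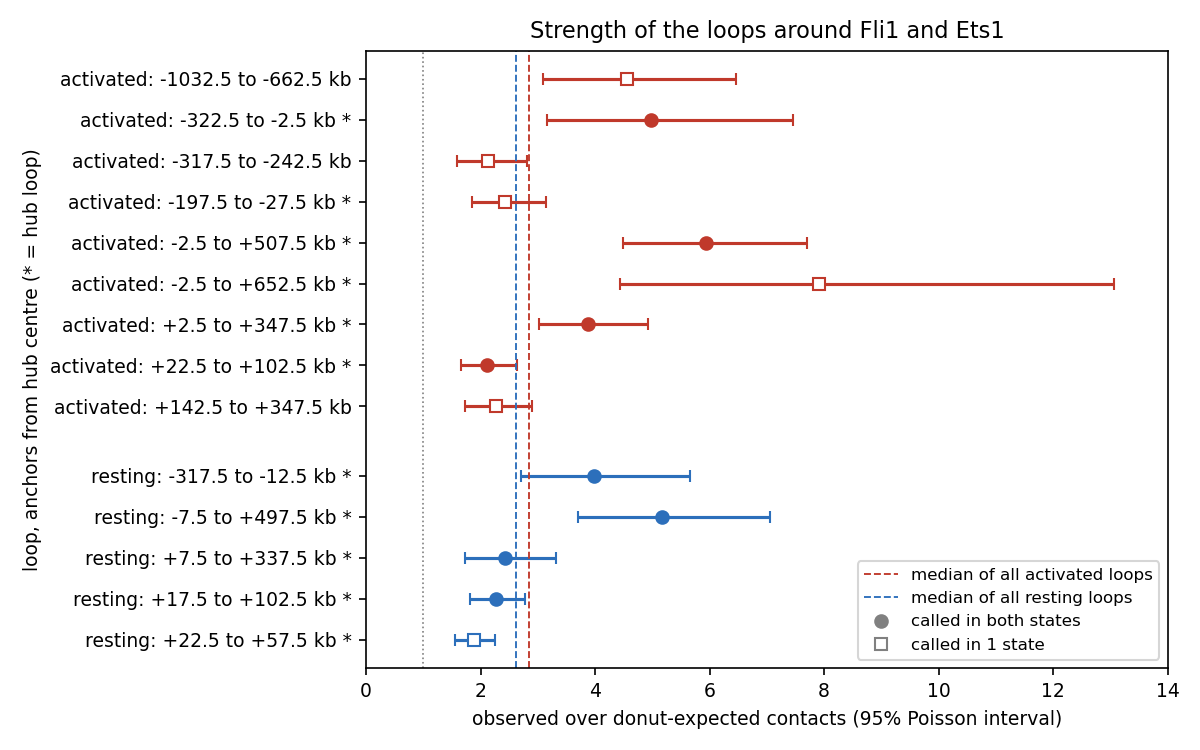
Observed over donut-expected contacts of the 14 loops, with 95% Poisson intervals, activated loops above resting loops. Each is named by the distance of its feet from the centre of the hub, filled circles were called in both states, and dashed lines mark the medians of all loops (2.84 in activated, 2.63 in resting cells). Values run from 2.10 to 7.92 in activated and from 1.88 to 5.18 in resting cells.

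Of the 4 shared loops 1 changed in strength by over 1.5-fold. It was the 345 kb loop over Ets1, at 1.60-fold in activated over resting cells (log2 ratio 0.68, counting SE 0.29, interval 1.08 to 2.37). Genome-wide 4.04% of 1212 pairs were stronger in activated cells past this fold and 1.82% weaker. The change of the 345 kb loop depended on the background: against the lower left background its log2 ratio was -0.0060, where its resting pixel had 16.1 contacts expected from the donut and 10.96 from the lower left. The 320 kb loop had a ratio of 1.25 (0.728 to 2.14), the 510 kb loop 1.15 (0.764 to 1.72) and the 80 kb loop 0.930 (0.684 to 1.26). The intervals of these 3 include 1.

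Raw contacts at the hub differed less between the states than the depth ratio of 1.55 taken from the local background of paired loops. At the 4 shared loops together there were 222 observed contacts in activated cells and 200 in resting cells, a ratio of 1.11 (exact conditional interval 0.913 to 1.351). At all 1177 pairs outside chromosome Y the median ratio was 1.62. The counts expected from the donut summed to 67.2 in activated cells and 71.4 in resting cells, a ratio of 0.942, where the median over all pairs was 1.56. Divided by the depth ratio of 1.55, observed contacts were at 0.715 (0.588 to 0.870) and expected contacts at 0.607. Pooled over the 4 loops, observed over expected contacts were 3.30 in activated cells and 2.80 in resting cells. The shortfall of observed contacts lay at 2 of the 4 loops: over the depth ratio, the 320 kb loop around Fli1 stood at 0.478 (0.266 to 0.847) and the 80 kb loop into Ets1 at 0.537 (0.390 to 0.738). The 510 kb loop stood at 0.902 (0.591 to 1.39) and the 345 kb loop at 1.12 (0.747 to 1.71), with intervals that include 1.

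**Figure D4:**
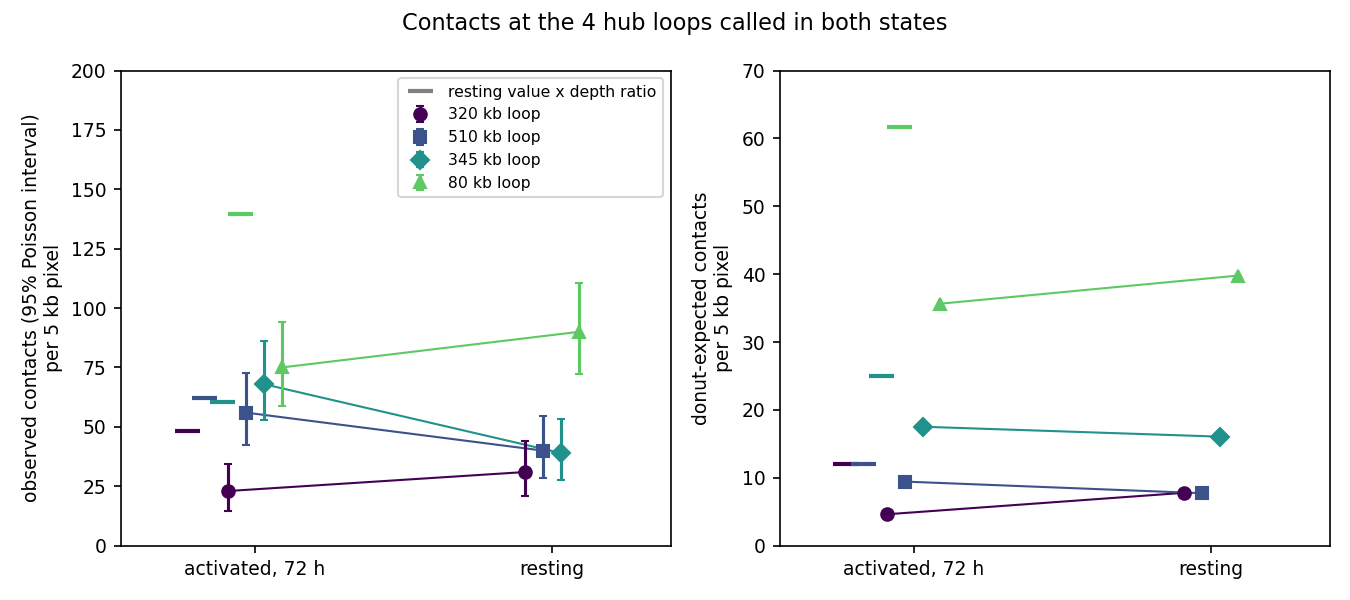
Observed contacts with 95% Poisson intervals (left panel) and donut-expected contacts (right panel) of the 4 shared hub loops, in activated and resting cells; horizontal dashes give the resting value times the depth ratio of 1.55. Loops are named by their length in activated cells. All 4 expected counts in activated cells lie under their dash, as do the observed counts of the 320, 510 and 80 kb loops.

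The low background was clearest at the loop around Fli1 and at the short loop into Ets1. At the 320 kb loop around Fli1 the expected count was 4.63 in activated cells and 7.79 in resting cells, a ratio of 0.594 that was lower in 1 of 110 other pairs of similar length. At the 80 kb loop it was 35.7 in activated and 39.8 in resting cells, a ratio of 0.896 that was lower in 5 of 213 such pairs. At the loops over Ets1 the ratio was nearer to that of other pairs, at 1.09 for the 345 kb loop (15 of 92 pairs lower) and 1.22 for the 510 kb loop (14 of 44 pairs lower). The partners lie at different pixels, and the background falls with distance. Among pairs whose length also shifted alike, within 5 kb, the ratio of the 320 kb loop was below all 14 and that of the 80 kb loop below all 133. This comparison was chosen after the values were seen, and its cause was not tested.

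**Figure D5:**
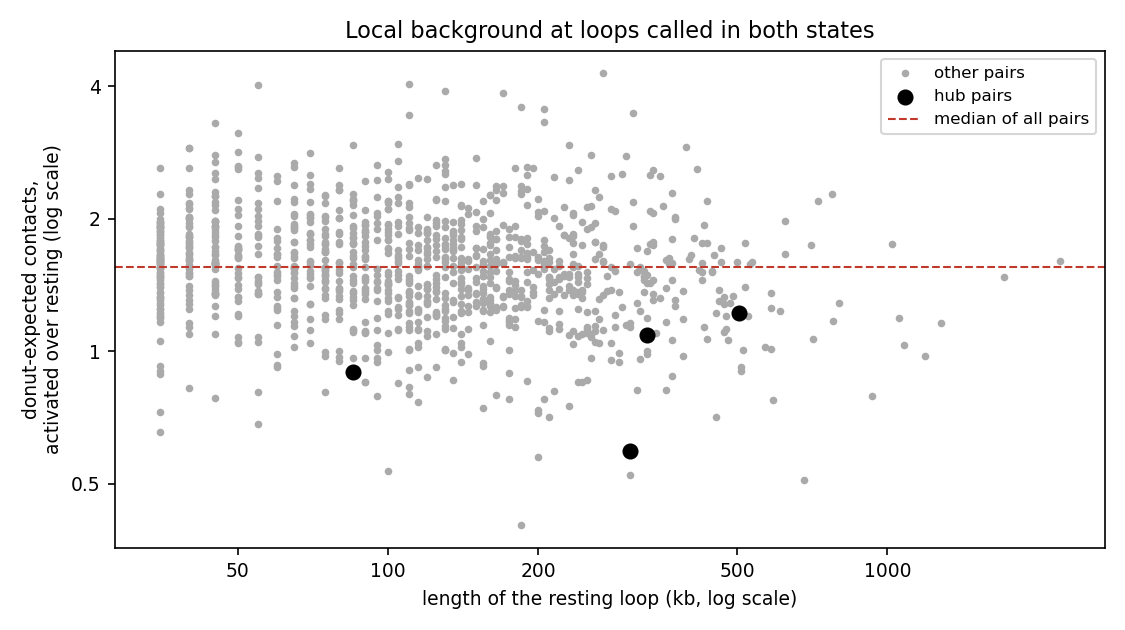
Ratio of donut-expected contacts, activated over resting cells, against the length of the resting loop in kb for loops called in both states without chromosome Y (both axes log scale). The 4 hub pairs (black) lie at 0.594 to 1.22, below the dashed median of 1.55 of all pairs.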

How the data were processed

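The values are the authors' 2 deposited loop lists, pooled per state. Per the submitters' processing notes BWA, Juicer and build mm9 were used; loop caller and versions: not given in the sources used here. An observed contact count (deposited as raw whole counts) stands beside each loop, per the file headers, with expected counts from 4 local backgrounds, and a q-value against each. Observed counts ranged from 14 to 932 in the activated list (median 67) and from 19 to 999 in the resting list (median 61). The activated list was taken as the 72 h state, the only activated map without deletion or inhibitor in the deposited description.

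Loops were shared when both anchors overlapped, after adding 10 kb at each edge, those of a loop in the other list. Length is the distance between anchor midpoints. Coordinates are 1-based. Intervals (95%) are exact Poisson for counts, with expected counts taken as fixed, exact conditional binomial for ratios of counts, normal on the log2 scale (1.96 counting SE) for ratios of strengths and Wilson for shares; all cover counting error only. Matching was tested on made-up lists. Named are all 14 loops; in the rest of the region this follows the rule of the strongest, longest and most changed loops, which covers all 3 there. Members and settings were chosen with earlier results of these data known. Gene intervals are approximate ones for mm9; the order of neighbouring genes is from RefSeq (GRCm38.p6). Promoter sequences of Ets1 and Fli1, motifs and other ETS family loci were not analysed here. Alternatives covered q-values, strength, depth, widening, backgrounds and the window. Python 3.11.15, numpy 2.4.6, pandas 2.3.3 and scipy 1.17.1 were used.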

Additional observations from a re-analysis of the deposited data

How the results depend on the processing

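Of 68 alternatives 54 stayed near the main value (counts within 1.5 times, others within their interval), 13 moved and 1 reversed. Some of the 54 could not have moved, so their number does not measure robustness. The depth setting left the resting list unchanged. The interval of the median resting length was the whole range of the 5 loops, which holds the median of any part of them. Alternatives on merged pixels, the 5 kb widening and the depth at similar length were chosen after the data were seen. With all q-values at most 0.01 the region kept 5 activated and 2 resting loops, and the resting hub 2. Of these, 1 of 5 activated and 1 of 2 resting loops were shared. Without loops of 1 merged pixel or a q-value over 0.05 the activated region kept 5 loops. For depth, activated counts were divided by the depth ratio, and loops under the lowest resting count of their length class were dropped. The classes were bounded at 100 and 200 kb. This left 7 loops in the activated region and 4 at its hub. Loops were not called again at equal depth, so whether the activated hub then has fewer than the resting 5 was not tested. With anchors not widened no loop was shared, so the shares were 0% in both lists and no strength ratio could be computed; with 25 kb the resting share was 100%. Over the 4 pairs the median log2 ratio of strength was 0.26, and -0.07 with the lower left background; observed counts over the depth ratio gave -0.52, and -0.44 with the depth ratio of pairs of similar length. The log2 ratio of the 345 kb loop was -0.0060 with the lower left background. The cause was not tested, apart from the counts and shares, which follow from the limits set. No paired analysis was possible because each state has 1 pooled list. Without hub loops no resting loop was left, so no length was given. With 15 to 116 contacts per loop, counting error limits every ratio.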
